A study of Homo sapiens with 12 samples.

Results

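The cytosolic ribosomal protein genes, which encode the protein part of the ribosome in the cytosol, were followed in human bronchial epithelial cells (HBEC) expressing 3 forms of the receptor EGFR, with low oxygen and without it. Members were chosen by symbol: RPL or RPS followed by a number and at most a closing A or X, plus RPLP0, RPLP1 and RPLP2. Pseudogenes, mitochondrial ribosomal proteins and the S6 kinases stay outside this rule, and no measured value entered it. Of 76 symbols that met the rule in the gene table used, 68 were analysed here, 43 of the large subunit (60S) and 25 of the small subunit (40S), with 113 probes in all. Of these probes 110 were detected on at least 2 arrays and kept, and 67 of the 68 genes could be tested among 11926 genes of the whole series. RPL10, whose protein sits near the catalytic centre of the large subunit, had 2 probes, neither of them detected on any array, and it was not tested.

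The cells are airway lining cells grown in serum-free medium with EGF, and they stably expressed L858R EGFR, E746-E750 EGFR (a label that gives a run of residues of the kinase domain) or wild-type (WT) EGFR. Each line was hypoxic at 0.1% oxygen for 24 h or aerobic at 21% oxygen, which gave 6 groups of 2 Illumina bead arrays: L858R hypoxic and L858R aerobic, E746-E750 hypoxic and E746-E750 aerobic, WT hypoxic and WT aerobic. WT is therefore also a line with an introduced receptor, and the labels do not say whether a line is 1 clone or a pool. Separate cultures for the 2 arrays of a group are not stated either, and p-values then cover no more than the spread between these samples, possibly a technical one.

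The raw upper quartile was 128 to 207 intensity units per array, and between 14159 and 18229 of 47323 probes were detected per array, with the low end of both on the second L858R hypoxic array. The 2 L858R hypoxic arrays correlated at r = 0.849 over the kept probes, the 2 E746-E750 hypoxic arrays at 0.983, and the pairs of the other 4 groups at 0.991 to 0.997. All 6 of the basal airway markers with a probe were detected on all 12 arrays (KRT5, KRT14, EPCAM, ITGA6, ITGB4 and LAMB3). PTPRC and CD3E of leukocytes, COL3A1, DCN and LUM of mesenchymal cells, and CDH5, VWF and KDR of endothelium were detected on none. Other markers of these lists were detected. CD14 and LYZ of leukocytes and COL1A1, COL1A2 and PDGFRB of mesenchymal cells were kept, and 1 leukocyte marker was detected on all 12 arrays. CD14 averaged 8.27 log2 in WT aerobic cells and 7.15 in L858R aerobic cells, and LYZ 6.52 and 6.48. PECAM1 of endothelium was detected, but not on enough arrays to be kept. EGFR, read by its brightest probe, was at 9.91 and 11.12 log2 in L858R hypoxic cells and 9.78 and 9.93 in L858R aerobic cells, 10.25 and 10.65 in E746-E750 hypoxic cells and 9.59 and 9.65 in E746-E750 aerobic cells, and 11.05 and 10.73 in WT hypoxic cells and 10.01 and 10.21 in WT aerobic cells. A second kept EGFR probe read 7.69 and 8.84 in L858R hypoxic cells and 8.28 and 8.28 in L858R aerobic cells. It read 7.83 and 8.20 in E746-E750 hypoxic cells and 8.14 and 8.02 in E746-E750 aerobic cells. In WT cells it read 10.51 and 10.62 in hypoxic and 9.34 and 9.22 in aerobic cells, so every mutant array was below every WT array. Probe sequences were not used, and whether these probes tell the 3 forms apart was not checked.

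A ribosome joins a 40S subunit, which decodes the mRNA, to a 60S subunit, which forms peptide bonds and carries the stalk of acidic P proteins where elongation factors bind. Each protein is needed in step with the others, and the mRNAs are among the most abundant in a growing cell and are long lived. Most of them begin with a 5′ terminal oligopyrimidine tract (5′ TOP), a cytosine followed by an unbroken run of C and T, through which the kinase mTOR and the RNA-binding protein LARP1 control how well they are translated. Control of that kind acts on ribosome loading, which an array of total RNA does not read.

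The tract was looked for at the annotated transcription start of each gene, as a C at the first base followed by at least 4 bases of C or T on the transcribed strand. The start windows come from RefSeq on GRCh38.p14. Of the 68 members, 58 matched an entry, and 43 of these (74.1%) held the tract, against 1404 of 27305 genes in the whole table (5.14%). Windows hold 35 bases before the start and 15 from the start on. They are printed for members called under hypoxia in a mutant line, and for RPS19 and RPLP2 as members that stayed level. RPL30 and RPL37 were also called under hypoxia, but their windows were not taken. Capitals mark the tract.
RPL29: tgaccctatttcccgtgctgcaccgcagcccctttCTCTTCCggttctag
RPL36A: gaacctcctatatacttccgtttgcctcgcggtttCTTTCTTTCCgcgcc
RPL28: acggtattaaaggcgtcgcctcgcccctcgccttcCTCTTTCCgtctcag
RPS13: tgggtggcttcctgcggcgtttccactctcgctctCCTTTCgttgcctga
RPS19: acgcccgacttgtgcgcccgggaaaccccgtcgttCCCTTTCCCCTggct
RPLP2: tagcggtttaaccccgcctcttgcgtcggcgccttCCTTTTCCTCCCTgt
RPS7: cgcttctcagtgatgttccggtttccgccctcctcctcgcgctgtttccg
RPS26: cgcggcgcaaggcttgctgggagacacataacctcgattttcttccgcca
RPS28: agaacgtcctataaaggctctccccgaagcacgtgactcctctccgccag
RPL29 lies at chr3:51995881-51995930 on the minus strand and RPS13 at chr11:17077653-17077702 on the minus strand. The plus strand holds RPL36A at chrX:101390976-101391025, RPL28 at chr19:55385897-55385946, RPS19 at chr19:41860220-41860269 and RPLP2 at chr11:809932-809981. It also holds RPS7 at chr2:3575225-3575274, RPS26 at chr12:56041883-56041932 and RPS28 at chr19:8321461-8321510. The tract runs for 7 bases in RPL29, 10 in RPL36A, 8 in RPL28, 6 in RPS13, 11 in RPS19 and 13 in RPLP2. No match at the annotated start in RPS7, RPS26 and RPS28 says only that these letters do not stand at that base of this annotation.

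In WT cells, 24 h at 0.1% oxygen left the ribosomal protein mRNAs close to their aerobic level. None of the 67 members passed the test (limma over all 11926 genes, Benjamini-Hochberg adjusted p under 0.05, two-sided), against 13.1% of all genes, and 2 were under an unadjusted p of 0.05, against 25.7% of all genes. The median difference of the members was -0.02 log2 and that of all genes -0.03. Member differences ran from -0.54 to 0.56 log2, and 64 of the 67 (95.5%) lay within 0.5 log2 of the aerobic mean, against 72.5% of all genes.

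The stalk protein RPLP2 was at 14.52 and 14.38 log2 intensity in WT hypoxic cells and 14.53 and 14.43 in WT aerobic cells, and RPLP1 at 13.97 and 14.22 in WT hypoxic cells and 14.29 and 14.25 in WT aerobic cells. RPL5 and RPL11 bind 5S rRNA and, outside the ribosome, the p53 ligase MDM2. RPL5 was at 13.16 and 13.16 in WT hypoxic cells and 13.06 and 13.05 in WT aerobic cells (difference 0.11 ± 0.18, SE), and RPL11 at 14.13 and 13.94 in WT hypoxic cells and 14.17 and 14.24 in WT aerobic cells (-0.16 ± 0.13). The groups of RPL5 and RPL11 did not overlap, yet both differences were smaller than 2 standard errors.

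On the small subunit, RPS6, the substrate of the S6 kinases, was at 14.32 and 14.49 in WT hypoxic cells and 14.31 and 14.39 in WT aerobic cells. RPS19, the gene most often mutated in Diamond-Blackfan anaemia, was at 14.25 and 14.38 in WT hypoxic cells and 14.27 and 14.28 in WT aerobic cells. RPS4X, the X-linked form of RPS4, read 13.32 and 13.28 in WT hypoxic cells and 13.52 and 13.21 in WT aerobic cells. The same was seen for RPL13A, known for a role in interferon-regulated translation, at 13.92 and 13.56 in WT hypoxic cells and 13.94 and 13.90 in WT aerobic cells. In each of these 4 genes the ranges of both groups overlapped.

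The 2 members under an unadjusted p of 0.05 stood at opposite ends. RPL36A, a 60S protein near the exit site for transfer RNA, was at 8.28 and 8.64 log2 in WT hypoxic cells and 9.03 and 8.96 in WT aerobic cells, a difference of -0.54 ± 0.16 (SE, adjusted p = 0.0652, limma). RPL7, another 60S protein, was at 10.92 and 10.60 in WT hypoxic cells and 10.21 and 10.19 in WT aerobic cells, a difference of 0.56 ± 0.19 (adjusted p = 0.0958, limma). Neither pair of groups overlapped. RPS26, a 40S protein at the mRNA exit channel, was at 11.06 and 10.92 in WT hypoxic cells and 10.60 and 10.37 in WT aerobic cells, again without overlap (0.50 ± 0.66).

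The shared estimate of spread takes in the 4 mutant hypoxic arrays, and the standard error of RPS26 was 0.66 with them and 0.11 with the 8 other arrays. In that fit to 8 arrays 9 of the 67 members (13.4%) were called, against 47.3% of all genes: RPL7, RPS26, RPL29, RPL23A, RPL34 and RPL23 were higher in WT hypoxic cells and RPL36A, RPS7 and RPL37A lower. Their differences were those given by the 12 arrays, and all lay between -0.54 and 0.56 log2. Brightness moves with the size of the difference. The 33 members with an aerobic mean of 14 log2 and above, close to the highest normalized value of 14.72 on any array, had a median size of difference of 0.05, and the 14 members at 10 to 13 log2 one of 0.28. What part the top of the scale has in the small differences of the brightest members was not tested.

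Other genes of the translation machinery did pass the test in WT cells, and those called were nearly all lower in hypoxic cells. Of all genes 7.71% were called lower and 5.37% higher. Of 19 measured chaperones of ribosomal proteins and late assembly factors, 10 fell (median -0.72 log2). RRS1, which brings the 5S particle to the pre-60S subunit, averaged 6.5 log2 in WT hypoxic cells and 9.5 in WT aerobic cells (difference -2.95 ± 0.26, adjusted p = 0.000246, limma). LTV1, a 40S assembly factor, had a difference of -2.11 ± 0.32, GRWD1, a chaperone of RPL3, one of -1.93 ± 0.28, and RIOK1, a kinase of late 40S maturation, one of -1.86 ± 0.36.

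Of 34 initiation factors 8 fell (median -0.35), led by EIF3J (-1.51 ± 0.12), EIF5B, which joins the subunits (-1.15 ± 0.27), EIF3B (-1.09 ± 0.14) and EIF6, which keeps free 60S subunits apart from 40S (-0.96 ± 0.23). Of 76 mitochondrial ribosomal proteins 17 fell (median -0.35), led by MRPS26 (-1.63 ± 0.14), MRPL3 (-1.50 ± 0.15), MRPL34 (-1.48 ± 0.17) and MRPL24 (-1.45 ± 0.35). Of 9 elongation factors and their regulators 1 fell, EEF2K, the kinase that inhibits EEF2 (-1.28 ± 0.33), with a list median of -0.02.

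Of 6 measured paralogs of ribosomal proteins 1 fell, RPL22L1, a paralog of RPL22 (-1.31 ± 0.13, adjusted p = 0.000394). Of 7 other housekeeping mRNAs of the 5′ TOP class 2 fell, SNHG1, a host gene of small nucleolar RNAs (-1.15 ± 0.20), and EIF4A2 (-0.89 ± 0.24). Of 7 genes of ribosome quality control 2 fell, ABCE1, which splits ribosomes after termination (-2.06 ± 0.18), and ZNF598, a sensor of collided ribosomes (-1.24 ± 0.28). Of 18 genes that control 5′ TOP mRNAs through mTOR or drive ribosome synthesis, EIF4EBP3 rose (0.57 ± 0.14) and MYC fell (-1.85 ± 0.22, adjusted p = 0.00100). None of 3 genes that link ribosomal proteins to p53 was called, and FAU, the 1 measured gene of the ribosomal proteins whose symbols stand outside the RPL and RPS pattern, was not called (0.04 ± 0.35). Counts over lists describe these arrays and do not test a list against other genes.

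**Figure D1:**
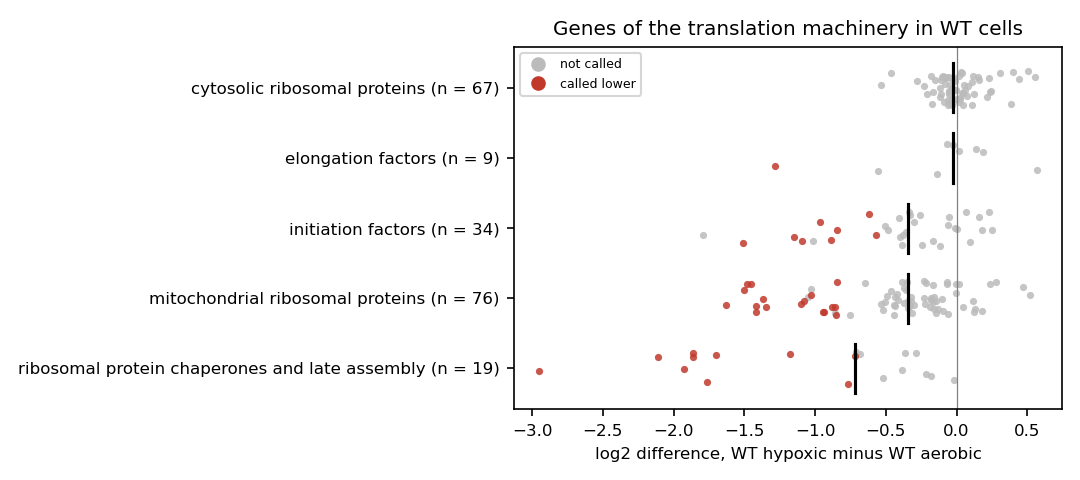
Log2 difference, WT hypoxic minus WT aerobic cells, for each measured gene (point) of 5 lists, with the list's median as a black bar; red points were called lower and grey points were not called. The 67 cytosolic ribosomal protein genes lie between -0.54 and 0.56 with none called, while called points of the initiation, mitochondrial ribosomal and assembly lists reach further left.

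In L858R cells under hypoxia, 8 of the 67 members (11.9%) passed the test, against 28.7% of all genes (16.1% higher and 12.6% lower). RPL29, RPS7, RPL30, RPL36A, RPL28 and RPS26 fell, and RPL37 and RPS28 rose. The member median was -0.18 log2 and that of all genes 0.09. The spread among the members was wide, from -4.27 to 0.97 log2, and 19 members were at least 1 log2 lower, as were 9.2% of all genes. In E746-E750 cells 5 members (7.46%) were called, against 27.1% of all genes (16% higher and 11.1% lower): RPL29, RPS7 and RPL36A fell, and RPL37 and RPS13 rose. The member median there was -0.06 and that of all genes 0.10, and 9 members were at least 1 log2 lower, as were 7.46% of all genes.

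**Figure D2:**
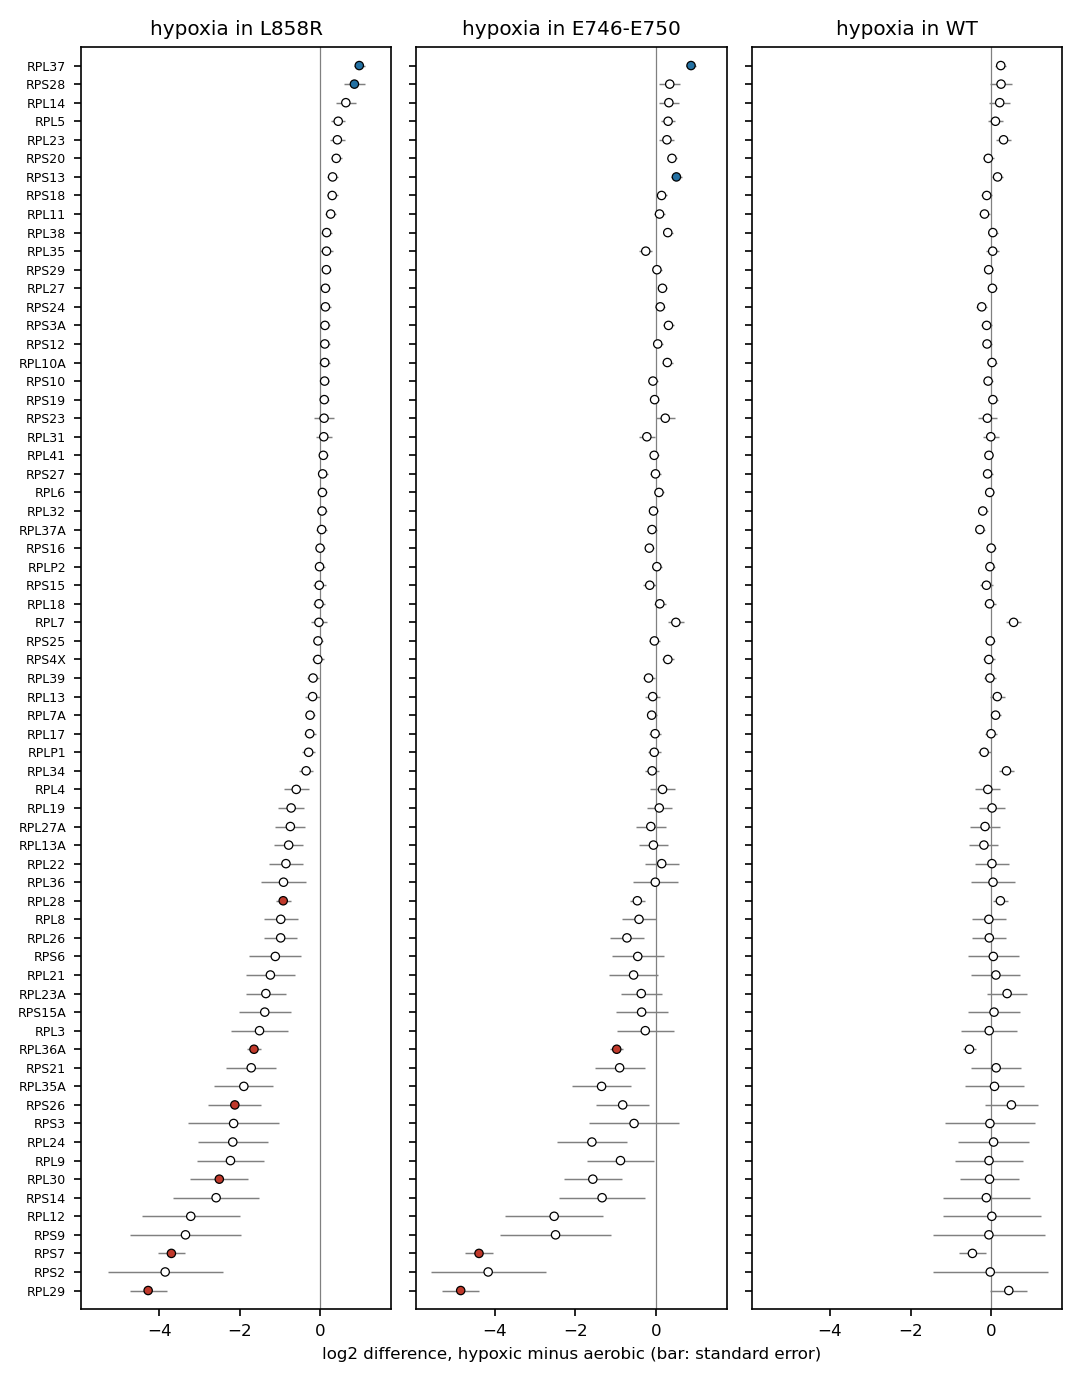
Log2 difference, hypoxic minus aerobic, of the 67 tested members in L858R, E746-E750 and WT cells, in the order of the L858R differences, with standard errors from the 12-array fit (2 arrays a group); filled points were called (red lower, blue higher) and open points were not. RPL29 and RPS7 are near -4 in both mutant lines and within 0.5 of 0 in WT cells, and the widest errors belong to members low on the second L858R hypoxic array.

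RPL29, a 60S protein that also occurs at the cell surface as a heparin-binding protein, moved most. Its used probe read 7.53 and 5.98 log2 in L858R hypoxic cells and 10.95 and 11.10 in L858R aerobic cells. It read 7.17 and 6.26 in E746-E750 hypoxic cells and 11.63 and 11.48 in E746-E750 aerobic cells, and 10.55 and 10.88 in WT hypoxic cells and 10.13 and 10.43 in WT aerobic cells. All 4 mutant hypoxic arrays lay below every other array, and the second array of each mutant hypoxic group was under its detection level. The differences were -4.27 ± 0.46 in L858R cells (adjusted p = 0.000359, limma) and -4.84 ± 0.46 in E746-E750 cells (adjusted p = 0.000177, limma), and in WT cells 0.44 ± 0.46 (adjusted p = 0.658). Without the second L858R hypoxic array the L858R difference was -3.49, and without the first it was -5.05, both still called. A second probe of RPL29 gave -4.14 ± 0.37 in L858R cells and -4.73 ± 0.37 in E746-E750 cells.

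RPS7, a 40S protein that can bind MDM2, was low in both mutant lines on both of its probes. The used probe read 8.53 and 7.47 log2 in L858R hypoxic cells and 11.67 and 11.72 in L858R aerobic cells. It read 7.76 and 7.04 in E746-E750 hypoxic cells and 11.86 and 11.71 in E746-E750 aerobic cells, and 10.97 and 11.27 in WT hypoxic cells and 11.49 and 11.69 in WT aerobic cells. Every mutant hypoxic array was below every other array, and the WT groups did not overlap either. RPS7 fell 12.9-fold in L858R cells (-3.69 ± 0.34, adjusted p = 0.000170, limma) and 20.9-fold in E746-E750 cells (-4.39 ± 0.34, adjusted p = 6.70e-05, limma). Its second probe gave -4.46 ± 0.69 in L858R cells and -4.80 ± 0.69 in E746-E750 cells, and on the second L858R hypoxic array it lay 1.45 log2 further below its aerobic level than the used probe.

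The response of RPL29 and RPS7 to hypoxia differed between the mutant lines and WT cells in the test of the difference itself. The L858R response minus the WT response was -4.71 ± 0.65 log2 for RPL29 (adjusted p = 0.00492, limma) and -3.23 ± 0.48 for RPS7 (adjusted p = 0.00663). The E746-E750 response minus the WT response was -5.28 ± 0.65 for RPL29 (adjusted p = 0.00329) and -3.92 ± 0.48 for RPS7 (adjusted p = 0.00313). For L858R it also passed for RPL28, a 60S protein (-1.15 ± 0.26, adjusted p = 0.0322), and RPL36A (-1.11 ± 0.23, adjusted p = 0.0246). That made 4 of 67 members for L858R, against 7.76% of all genes, and 2 of 67 for E746-E750, against 7.29%. These members were all lower in the mutant response, while the shares of all genes count both directions. Of all 11926 genes, 407 were called lower and 518 higher for L858R, and 353 lower and 517 higher for E746-E750. Both sets of differences share the WT arrays. The calls of RPL28 and RPL36A were lost with median centring, 75th percentile scaling, the authors' table, only the arrays compared and array weights.

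RPL36A was lower under hypoxia in both mutant lines, without overlap of the groups. It read 7.93 and 7.79 log2 in L858R hypoxic cells and 9.44 and 9.57 in L858R aerobic cells, a difference of -1.64 ± 0.16 (adjusted p = 0.000233, limma). In E746-E750 hypoxic cells it read 8.71 and 8.78 and in E746-E750 aerobic cells 9.85 and 9.57, a difference of -0.97 ± 0.16 (adjusted p = 0.00294, limma). A second probe of RPL36A was detected on no array. RPL28 read 7.63 and 7.21 in L858R hypoxic cells and 8.29 and 8.38 in L858R aerobic cells (-0.92 ± 0.18, adjusted p = 0.00623), and 7.80 and 7.70 in E746-E750 hypoxic cells and 8.26 and 8.16 in E746-E750 aerobic cells, where it was not called.

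RPL30 and RPS26 rested more on 1 array. RPL30, a 60S protein that also binds the selenocysteine insertion element, read 13.16 and 10.31 log2 in L858R hypoxic cells and 14.28 and 14.20 in L858R aerobic cells (-2.51 ± 0.72, adjusted p = 0.0314, limma). RPS26 read 10.42 and 7.74 in L858R hypoxic cells and 11.12 and 11.28 in L858R aerobic cells (-2.12 ± 0.66, adjusted p = 0.0417). Without the second L858R hypoxic array the RPL30 difference was -1.08 and that of RPS26 -0.78, and without the first they were -3.93 and -3.46. RPL30 in E746-E750 hypoxic cells was 13.23 and 12.46 and in E746-E750 aerobic cells 14.36 and 14.46, which did not pass the test.

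The members that rose did so by less than 1 log2. RPL37, a 60S protein with a zinc finger, read 8.16 and 8.05 log2 in L858R hypoxic cells and 7.06 and 7.21 in L858R aerobic cells (0.97 ± 0.13, adjusted p = 0.00115, limma). It read 8.14 and 8.01 in E746-E750 hypoxic cells and 7.24 and 7.15 in E746-E750 aerobic cells (0.88 ± 0.13, adjusted p = 0.00185), and 7.77 and 7.58 in WT hypoxic cells and 7.38 and 7.49 in WT aerobic cells. All 6 hypoxic arrays were above all 6 aerobic arrays. With the dimmer second probe of RPL37 in its place neither mutant difference was called. RPS28, a 40S protein at the mRNA exit, read 12.33 and 13.30 in L858R hypoxic cells and averaged 11.96 in L858R aerobic cells (0.85 ± 0.27, adjusted p = 0.0432). RPS13, another 40S protein, read 14.20 and 14.39 in E746-E750 hypoxic cells and 13.80 and 13.77 in E746-E750 aerobic cells (0.51 ± 0.13, adjusted p = 0.0189).

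Several members were as low as the called ones on some mutant hypoxic arrays, with replicates too far apart to pass. RPS2, a 40S protein at the entry channel for mRNA, read 13.06 and 7.91 log2 in L858R hypoxic cells and 14.34 and 14.33 in L858R aerobic cells, and 11.61 and 8.68 in E746-E750 hypoxic cells and 14.32 and 14.28 in E746-E750 aerobic cells. Its differences were -3.85 ± 1.43 (adjusted p = 0.0753, limma) and -4.16 ± 1.43 (adjusted p = 0.062). RPS9, a neighbour of RPS2 at that channel, read 13.25 and 7.95 in L858R hypoxic cells and 13.92 and 13.97 in L858R aerobic cells, and 12.65 and 10.47 in E746-E750 hypoxic cells and 14.08 and 14.02 in E746-E750 aerobic cells. In both genes every mutant hypoxic array was below every aerobic array, and the second array of each line was far below the first.

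Other members kept their level on the same arrays. RPLP2 read 14.45 and 14.55 log2 in L858R hypoxic cells and 14.49 and 14.54 in L858R aerobic cells, and 14.59 and 14.44 in E746-E750 hypoxic cells and 14.49 and 14.48 in E746-E750 aerobic cells. RPS19 read 14.39 and 14.38 in L858R hypoxic cells and 14.26 and 14.32 in L858R aerobic cells. RPL11 read 14.25 and 14.31 in L858R hypoxic cells and 14.13 and 13.91 in L858R aerobic cells, and its second probe 13.72 and 14.26 in L858R hypoxic cells and 13.88 and 13.75 in L858R aerobic cells. RPL5 read 13.14 and 13.70 in L858R hypoxic cells and 13.06 and 12.90 in L858R aerobic cells (0.45 ± 0.18, adjusted p = 0.0951). RPS6 read 14.48 and 11.91 in L858R hypoxic cells and 14.24 and 14.37 in L858R aerobic cells, and RPL13A 13.75 and 12.38 in L858R hypoxic cells and 13.88 and 13.82 in L858R aerobic cells. For RPS6 and RPL13A it was again the second array that stood low.

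Counted by array, the ribosomal protein probes show how far each sample departed from its own line. Of the 110 kept probes, 17 and 53 were more than 1 log2 below their line's aerobic mean in the first and second L858R hypoxic sample. In E746-E750 hypoxic cells it was 19 and 29, in WT hypoxic cells 1 and 0, and in each aerobic sample 0. As a share of the members that is 15.5%, 48.2%, 17.3%, 26.4%, 0.909% and 0%, and over all 21261 kept probes the shares were 7.39%, 15.8%, 7.99%, 10.2%, 3.68% and 3.41%. More than 3 log2 below were 5 and 23 member probes in L858R hypoxic cells and 6 and 12 in E746-E750 hypoxic cells. The medians of the 110 probes were -0.07 and -0.65 log2 in L858R hypoxic cells and -0.07 and -0.13 in E746-E750 hypoxic cells. The L858R hypoxic replicates differed by more than 1 log2 in 48 of the 110 probes and, by the used probe, in 26 of the 67 genes. The E746-E750 hypoxic replicates did so in 12 probes and 6 genes, and those of the other 4 groups in none. The 3 log2 counts, the medians and the replicate gaps are given for the members only. Without the same values over all kept probes they do not set the members apart from other genes.

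**Figure D3:**
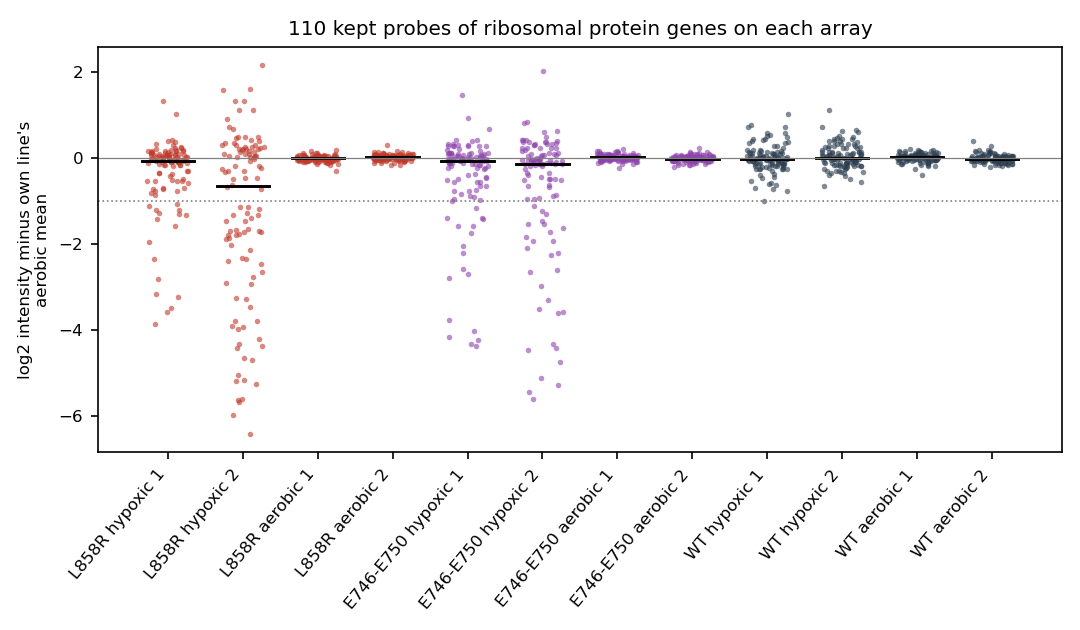
Log2 intensity minus the mean of the same line's aerobic arrays, for each of the 110 kept member probes (points) on each of the 12 arrays, with the median as a black bar and the 1 log2 limit dotted. The 4 mutant hypoxic arrays have long lower tails, deepest on L858R hypoxic 2 with 53 probes under the dotted line, while WT hypoxic arrays have 1 and 0.

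The probes that were low in the E746-E750 line were low on the second L858R hypoxic array too, and fewer of them on the first. All 19 of the first E746-E750 hypoxic array and all 29 of the second were among the 53 of the second L858R hypoxic array, each line being measured against its own aerobic arrays. On the first L858R hypoxic array 16 of these 19 and 16 of these 29 were low. Over the 4 mutant hypoxic arrays 57 probes were low on none, 23 on 1, 10 on 2, 5 on 3 and 15 on all 4. In 27 of the 67 genes no kept probe was low on any of the 4 arrays, among them RPL5, RPL11, RPLP2, RPS19, RPS3A, RPS27 and RPS29. In 4 genes every kept probe was low on all 4, RPL29, RPS7, RPL30 and RPS2. The other 36 genes fell between. These overlaps and counts were not computed over all kept probes or all genes, so they do not set the members apart from other genes.

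Part of the members had probes that went separate ways. In 31 members with at least 2 kept probes, the gap between the 2 brightest was measured from its mean over all 6 aerobic arrays. They parted by more than 1 log2 in 6 and 19 genes in L858R hypoxic cells and in 6 and 10 in E746-E750 hypoxic cells. On each of the other 8 arrays the count was 0. The shares were 19.4% and 61.3% in L858R hypoxic cells and 19.4% and 32.3% in E746-E750 hypoxic cells. Over all 3213 genes with 2 such probes they were 18.1%, 45.8%, 20.2% and 27.3% on the same arrays, and 3.08% and 2.68% on the WT hypoxic arrays. In all 21 of the 31 members parted on at least 1 array, 15 of them with both probes annotated to 1 transcript accession.

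RPL8, a 60S protein at the catalytic core, showed it most plainly. Its brighter probe, ILMN_1764721, read 13.70 and 12.11 log2 in L858R hypoxic cells and 14.06 and 13.71 in L858R aerobic cells, and 13.68 and 13.60 in E746-E750 hypoxic cells and 13.97 and 14.13 in E746-E750 aerobic cells. Its other probe, ILMN_1811433, was undetected at 5.98 and 6.05 in L858R hypoxic cells against 9.79 and 9.89 in L858R aerobic cells, and at 6.17 and 5.95 in E746-E750 hypoxic cells against 10.49 and 10.33 in E746-E750 aerobic cells. By that probe RPL8 was at least 9.91-fold lower in L858R cells and at least 15.8-fold lower in E746-E750 cells (adjusted p = 1.86e-06 and 9.27e-07 over all kept probes, limma). In WT cells it read 10.41 and 10.29 in hypoxic and 9.97 and 9.68 in aerobic cells. Both probes carry the same accession.

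RPL10A, a 60S protein of the L1 stalk, read 14.13 and 14.39 in L858R hypoxic cells and 14.17 and 14.13 in L858R aerobic cells on its brighter probe. Its other probe read 10.63 and 8.09 in L858R hypoxic cells and 12.13 and 12.01 in L858R aerobic cells, and 10.03 and 7.92 in E746-E750 hypoxic cells and 12.42 and 12.08 in E746-E750 aerobic cells, where it fell (-3.28 ± 0.86, adjusted p = 0.0232 over kept probes, limma). RPL9, a 60S protein near the sarcin-ricin loop, had 3 kept probes. On the second L858R hypoxic array they read 10.34, 12.33 and 6.24, against 14.28, 10.83 and 10.61 on the second L858R aerobic array, so that 1 probe was above and 2 were below.

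RPS4X parted on the second mutant hypoxic arrays only. Its probe ILMN_1810577 read 13.79 and 9.38 in L858R hypoxic cells and 13.74 and 13.76 in L858R aerobic cells, and 13.38 and 11.79 in E746-E750 hypoxic cells and 13.50 and 13.76 in E746-E750 aerobic cells. The brighter probe of RPS4X read 13.65 and 13.37 in L858R hypoxic cells and 13.54 and 13.61 in L858R aerobic cells. RPL12, a 60S protein at the base of the stalk, parted by 3.64 log2 on the second L858R hypoxic array, with the brighter probe the lower one, and by more than 1 log2 in the same direction on both E746-E750 hypoxic arrays. RPS15A parted by 2.99, RPL3, part of the catalytic centre, by 2.86 and RPS14, a 40S protein of the platform, by 2.82, all 3 on that same array and with the brighter probe lower. In 13 further members the largest parting ran from 1.17 to 2.62 log2.

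**Figure D4:**
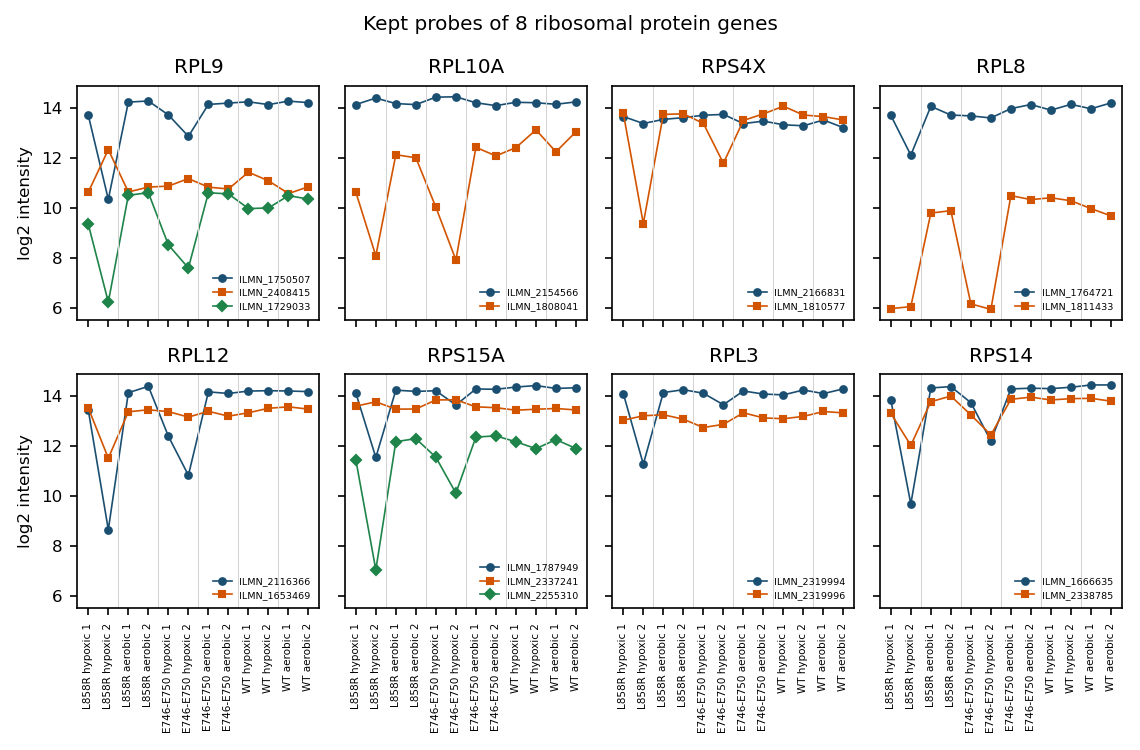
Normalized log2 intensity of each kept probe of the 8 members that parted most, over the 12 arrays, hypoxic before aerobic within each line; a line and symbol stand for 1 probe. In RPL8 and RPL10A 1 probe drops on all 4 mutant hypoxic arrays while the other stays near 14 on most of them, and RPL12 parts by more than 1 log2 on 3 of these arrays and RPL3 and RPS14 on 1, L858R hypoxic 2.

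In RPL29, RPS9, RPL6, RPL11, RPS3A, RPS27 and RPS29 the 2 brightest probes kept their gap within 0.45 log2 of its aerobic mean on every array. That held on arrays where these probes were low (RPL29, RPS9) and where they were not. RPL6 also had another, dimmer kept probe, with deviations of -2.83 and -5.16 log2 in L858R hypoxic cells and -3.77 and -4.42 in E746-E750 hypoxic cells. Tested probe by probe over all 21261 kept probes, 1 member probe was called in WT cells (10.1% of all kept probes), 26 in L858R cells (27.3%) and 22 in E746-E750 cells (26.1%). In WT cells it was the dimmer probe of RPL14, a 60S protein, at 10.38 and 10.48 in WT hypoxic cells and 9.57 and 9.15 in WT aerobic cells (1.07 ± 0.28, adjusted p = 0.0483). That RPL14 probe was also higher in L858R cells (1.74 ± 0.28) and in E746-E750 cells (1.74 ± 0.28), and it was the only kept member probe more than 1 log2 above its aerobic mean on all 4 mutant hypoxic arrays. Of the called member probes 21 were lower and 5 higher in L858R cells, and 18 lower and 4 higher in E746-E750 cells. The shares of all kept probes given above count both directions, so the direction of these calls is not set against other probes.

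The same parting was present in ACTB, a gene used for arrays as a check of RNA integrity. One ACTB probe read 8.31 and 6.66 in L858R hypoxic cells and 14.25 and 14.40 in L858R aerobic cells, and 7.94 and 7.34 in E746-E750 hypoxic cells and 14.35 and 14.27 in E746-E750 aerobic cells. Another ACTB probe read 14.12 and 14.16 in L858R hypoxic cells and 14.52 and 14.45 in L858R aerobic cells, and 14.41 and 14.34 in E746-E750 hypoxic cells and 14.41 and 14.37 in E746-E750 aerobic cells. The part that RNA quality has in the low ribosomal protein probes was not tested. Ribosomal protein genes also have many processed pseudogenes, and probe sequences were not used here, so what else a probe could bind was not checked. In RNA of a whole culture, fewer cells of a kind and less RNA per cell cannot be told apart.

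Between lines in aerobic cells the ribosomal protein genes differed little. None of the 67 was called for L858R against WT (0.0252% of all genes), for E746-E750 against WT (0.277%) or for E746-E750 against L858R (0.0335%) with limma over 12 arrays, and 3, 3 and 0 members were under an unadjusted p of 0.05, against 5.51%, 7.73% and 2.26% of all genes. The member medians were -0.04, -0.01 and 0.05 log2. In 11 members (16.4%) all 4 aerobic mutant arrays lay above both aerobic WT arrays, against 16.2% of all genes, and in 7 (10.4%) all 4 lay below, against 19.5%. Of these 11, 4 were also called in both mutant lines when fewer arrays were used. RPL34, a 60S protein, read 11.68 and 11.64 in L858R aerobic cells and 11.48 and 11.61 in E746-E750 aerobic cells, against 10.91 and 10.78 in WT aerobic cells (0.81 ± 0.18 and 0.70 ± 0.18).

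RPS26 read 11.12 and 11.28 in L858R aerobic cells and 11.32 and 11.40 in E746-E750 aerobic cells, against 10.60 and 10.37 in WT aerobic cells (0.72 ± 0.66 and 0.87 ± 0.66). RPL29 had differences of 0.75 ± 0.46 and 1.28 ± 0.46 and RPL36A of 0.51 ± 0.16 and 0.72 ± 0.16, with the array values given above. With the 8 arrays outside the mutant hypoxic groups, 6 members (8.96%) were called for L858R against WT. They were RPL34, RPL29, RPS26, RPL36A, RPL7 and RPL23A, all higher in L858R cells. Of all genes 11.5% were called, 5.62% higher and 5.91% lower. For E746-E750 against WT 5 were called, with RPL34, RPL29, RPS26 and RPL36A higher in E746-E750 cells and RPL22 lower (-0.34). Of all genes 17.8% were called there, 7.43% higher and 10.3% lower. Both comparisons share the WT arrays. For E746-E750 against L858R none was called with these arrays either (2.26%).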

How the data were processed

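Total RNA of the 12 samples was read on Illumina bead arrays as biotinylated cRNA, per the labels' protocols. The deposited raw table gives the linear intensity of each of 47323 probes, before background subtraction and without detection p-values. The authors' processed table gives log2 values with equal quantiles on every array (median 3.11), and how background was treated in it is not stated by the sources. Intensities were corrected with normexp (offset 50) and quantile normalized with limma 3.58.1 in R 4.3.3. No detection p-values being at hand, a probe counted as detected above percentile 99 of the array's mirrored noise peak (bandwidth 0.02). Probes detected on at least 2 of 12 arrays were kept. Names came from the platform annotation (30113 probes with 1 gene, 8 with several, 17202 with none), and the brightest kept probe stood for its gene. Sequences are RefSeq's on GRCh38.p14.

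A mean for each of 6 groups was fitted with limma (lmFit, eBayes) over all 12 arrays, without a replicate block. Tests are two-sided, adjusted by Benjamini-Hochberg over all genes tested, or over all kept probes where said, and called under 0.05. A fold against a group with no array above detection is a lower bound. Precision is limited by the number of arrays. The fit was tested on simulated data. Members, gene lists and tests were chosen with earlier results of these data known. Named were the 6 highest and 6 lowest called members of a comparison; RPLP1, RPLP2, RPL5, RPL11, RPS6, RPS19, RPS26, RPL13A and RPS4X whether called or not; the 8 members whose 2 brightest probes parted most; members without a kept probe; and up to 4 called genes of each other list, with MYC and EGFR. RPS2, RPS9, RPL14 and ACTB, and the members called with fewer arrays or listed as level, were named after their values were seen. Alternatives covered background, normalization, filter, probe choice, moderation, arrays in the fit, replicate block and array weights. Leaving out the second arrays of both mutant hypoxic groups was chosen after seeing the data.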

Additional observations from a re-analysis of the deposited data

Results flagged for a closer look

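The hypoxia response of 4 members differed from that of WT cells in the test of the difference itself (limma over all genes, 2 arrays a group, mutant response minus WT response on the log2 scale). For L858R cells the values were -4.71 for RPL29, -3.23 for RPS7, -1.15 for RPL28 and -1.11 for RPL36A. Without the second L858R hypoxic array the RPL29 value was -3.93, and without the first -5.49. RPL28 and RPL36A were not called with median centring, the authors' table or array weights, among other settings. For E746-E750 cells the values were -5.28 for RPL29 and -3.92 for RPS7. Each is lower in the mutant line's response, on both arrays of the hypoxic group against both aerobic arrays. RPL29 and RPS7 were each low on both of their probes, which in RPS7 lay 1.45 log2 apart on the second L858R hypoxic array, and RPL28 and RPL36A by 1 detected probe each. The ACTB probe that was low on the same 4 arrays, at 8.31 and 6.66 log2 in L858R hypoxic cells and 7.94 and 7.34 in E746-E750 hypoxic cells, moves with these results, and its part in them was not tested.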

How the results depend on the processing

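Among the results named, no direction reversed. RPS7 kept its calls under every alternative run, and RPL29 under every one that tested it, with 1 exception. That was a fit to only the 4 arrays compared in L858R cells, where no member was called. With detection on all 12 arrays RPL29 was not tested, as its probes were detected on 10. Counts moved more, mostly with the arrays that set the spread. In WT cells hypoxia called 0 members with all arrays, 0 to 6 with 1 array left out, 1 with the second brightest probe, 7 with only the arrays compared, 9 without both mutant hypoxic groups, 7 with array weights and 9 without replicate 2 of both mutant hypoxic groups. In L858R cells 8 became 4 to 42 with 1 array left out, 20 with the mean of a gene's probes, 16 with the second probe, 0 with only the arrays compared, 4 with array weights and 18 without those replicates. The highest count came without the first L858R hypoxic array. Leaving out either array of that group keeps only 1, so those counts in L858R cells are not set against all genes. The share given next for E746-E750 cells counts both directions together and does not show the direction of the calls. In E746-E750 cells 5 became 4 to 30, 15 with median centring, 8 with scaling to the 75th percentile, 15 with the mean of probes, 15 with the second probe, 21 with only the arrays compared, 22 with array weights and 18 without those replicates; it was 30 without either L858R hypoxic array (44.8%, against 58.6% of all genes). Aerobic L858R against WT gave 0, and 0 to 2 with 1 array left out, 8 with only the arrays compared, 6 without the mutant hypoxic groups, 7 with array weights and 6 without those replicates. Aerobic E746-E750 against WT gave 0, and 0 to 4, 8, 5, 6 and 5 under the same settings, and E746-E750 against L858R 0, and 1 with only the arrays compared (0 to 0 with 1 array left out). The L858R response minus the WT response gave 4, and 2 to 43 with 1 array left out, 2 with median centring, 75th percentile scaling, the authors' table or only the arrays compared, 7 with the mean of probes, 8 with the second probe and 18 without those replicates. The E746-E750 response minus the WT response gave 2, and 2 to 17, 4 with median centring, 1 with detection on all 12 arrays, 5 with the mean of probes, 7 with the second probe, 15 with only the arrays compared, 18 with array weights and 16 without those replicates. Called member probes over the 3 lines numbered 49, and 31 to 153 with 1 array left out, 22 with detection on all 12 arrays, 83 with array weights and 108 without those replicates. The cause of these moves was not tested beyond the arrays left out.

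With the replicate number as a block the counts were 0 in WT, 7 in L858R and 6 in E746-E750 cells, and 46 probes; of the named calls only RPS28 in L858R cells was lost. Of 15 pairs of groups 3 had same-numbered samples that deviated together at r over 0.1 (range -0.17 to 0.76). The 0.76 belonged to L858R hypoxic with E746-E750 hypoxic cells, and the next highest was 0.16. The second arrays of both mutant hypoxic groups thus departed from the first in a shared way, which limits what their likeness shows. Why they did was not tested. As the labels name no pairs, the numbers were not taken to pair samples in the main fit. RPS26, RPS28 and RPL30 in L858R cells and RPL28 in the L858R response minus the WT response lost their calls when most single arrays were left out. RPL28 and RPL36A in that response difference were also not called with median centring, 75th percentile scaling, the authors' table, only the arrays compared or array weights. RPS13 in E746-E750 cells lost its call with cyclic loess, the authors' table and some single arrays left out. RPL36A in E746-E750 cells lost it with median centring. In L858R cells RPL37 lost it with median centring and array weights, and RPL28 and RPL36A with array weights, among other settings. Array weights were 0.0668 for L858R hypoxic, 0.779 for E746-E750 hypoxic and 1.32 to 2.91 for the other groups. Members above 14 log2 lie near the top of the scale, and probes near the detection level of 6.38 to 6.66 log2 have only bounds below it.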

Other observations

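Outside the ribosomal proteins, the lists of the translation machinery behaved alike in part across the lines. In L858R cells 10 of 19 assembly factors fell under hypoxia and 1 rose (28.7% of all genes were called), and in E746-E750 cells 9 fell and 1 rose (27.1%). RRS1 fell by 2.48 log2 in L858R cells and fell by 2.34 in E746-E750 cells, and EFL1, the GTPase that helps to release EIF6 from the 60S subunit, rose by 1.31 and 1.32. Of 76 mitochondrial ribosomal proteins 27 fell and 1 rose in L858R cells, and 19 fell and 3 rose in E746-E750 cells. MRPL20 (-3.71 and -3.76) and MRPL12 (-3.17 and -3.48) had the lowest differences of that list. MRPS34 followed with -2.36 in L858R cells and -2.54 in E746-E750 cells. MYC fell by 2.82 in L858R cells and by 1.84 in E746-E750 cells. These values share the mutant hypoxic arrays on which many ribosomal protein probes were low, and the part of those arrays was not tested.

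Of 34 initiation factors 4 were higher and 5 lower in L858R cells, where 16.1% of all genes were higher and 12.6% lower, and 5 were higher and 3 lower in E746-E750 cells, where 16% were higher and 11.1% lower. EIF1, which holds the scanning 40S subunit open, rose by 1.12 in L858R cells and by 1.49 in E746-E750 cells, and EIF4G1, the scaffold of the cap-binding complex, fell by 1.02 and by 2.10. SNHG1 was called lower in WT cells under hypoxia (-1.15) and higher in L858R cells (1.12) and E746-E750 cells (1.39), from a lower level in aerobic E746-E750 than in aerobic WT cells (-1.64 ± 0.20, adjusted p = 0.0209, limma). Of 9 elongation factors 1 rose and 2 fell in L858R cells and 1 fell in E746-E750 cells, of 6 paralogs 1 rose and 2 fell in L858R cells and 1 fell in E746-E750 cells, and RPL22L1 was among the fallen in both (-1.31 and -1.16). Of 18 genes of 5′ TOP control 4 rose and 5 fell in L858R cells and 3 rose and 4 fell in E746-E750 cells, with MTOR higher in both (0.79 and 0.91). Of 7 quality control genes 2 rose and 1 fell in each mutant line. Of 7 other housekeeping mRNAs of the 5′ TOP class 1 rose in L858R cells and 2 in E746-E750 cells, and of 3 genes of the p53 link 1 fell in L858R cells and 1 rose and 1 fell in E746-E750 cells.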
